A study of Bombus terrestris with 8 samples.

Results

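The change in open chromatin from pupa to adult was described in workers of the bumblebee *Bombus terrestris* by comparing the peak lists of 2 pupa samples with those of 2 adult samples. Joining distinct intervals of the 4 lists wherever they shared 1 bp or more gave 52086 regions, against 63245 when the 4 lists of egg and larva were joined as well. A region was called kept when it held a peak in all 4 lists (15856 regions), lost when both pupa lists and no adult list held one (8170), and gained when both adult lists and no pupa list held one (4024). The remaining 24036 regions, in which the lists of a stage disagreed or 3 lists held a peak, were called mixed. A pupa sample was a pool of whole worker pupae with the volume of 1 adult bee, taken between the pigmentation of the eyes and the growth of the wings. An adult sample was 1 whole worker. All animals came from several commercial colonies, no treatment is named, and the labels give neither an age nor the colony of a sample. No replicate number is stated to link a pupa sample to an adult sample.

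In the pupa of a holometabolous insect, larval tissues are broken down and the adult body, with its flight muscle, wings, compound eyes and cuticle, is built under pulses of ecdysteroid hormone. Enhancers and promoters in use are depleted of nucleosomes, and in ATAC-seq the Tn5 transposase cuts such open DNA preferentially, so that cut sites pile up into a peak. A whole-body peak averages over all tissues, and fewer cells of a type and less accessible chromatin per cell cannot be told apart. The regions are given as positions on the Bter_1.0 assembly, and their sequences, cell types and nearest genes were not analysed here.

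The pupa lists held 33149 and 37502 distinct intervals in replicates 1 and 2, and the adult lists 27135 and 31548. The stage means were 35325.5 ± 3078 and 29341.5 ± 3120 (SD, n = 2), so that both pupa lists were longer than both adult lists. Each interval carries the fold enrichment of its cut sites over the background around it in its own library, and −log10 of the p-value of that enrichment. Neither was scaled between samples, and the lists carry no reads from which the depth of a peak could be read, so strengths were compared as ranks within a list. Between 17.1% and 22.6% of the intervals of a list lay outside the 18 chromosomes of Bter_1.0, on contigs without a known place. These unplaced contigs are given apart by the rule of the comparison, and pupa replicate 2 stood apart from the other 3 lists there. Among kept regions on unplaced contigs its median rank of fold enrichment was 54.5, on a scale from 0 for the weakest to 100 for the strongest kept region, against 73.3 in pupa replicate 1 and 73.6 and 72.1 in the adult replicates.

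On the placed chromosomes, lost regions outnumbered gained ones. Of 43084 regions, 11860 (27.5%) were kept, 7371 (17.1%) lost, 3478 (8.07%) gained and 20375 (47.3%) mixed, so that there were 2.12 lost regions for each gained one. Lost regions covered 3.21 Mb, gained regions 1.39 Mb and kept regions 8.30 Mb. Seen from the pupa, 33.6% of the 21968 regions that both pupa lists shared had no adult peak, and 12.5% had a peak in 1 adult list. Seen from the adult, 20.1% of the 17305 regions that both adult lists shared had no pupa peak, and 11.4% had a peak in 1 pupa list.

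Stage was the main line along which pairs of lists separated. Where exactly 2 lists shared a region, the pairs that crossed the stages shared far fewer regions than the pairs within a stage. The cross-stage pairs held 213 regions for replicate 1 of both stages, 319 for pupa 1 with adult 2, 299 for pupa 2 with adult 1 and 924 for replicate 2 of both stages. Regions found in a single list numbered 2569 and 6093 in pupa replicates 1 and 2, and 1425 and 3829 in the adult replicates, more in the longer list of each stage. Leaving out pupa replicate 1 moved the lost regions to 13565, and leaving out adult replicate 1 moved the gained regions to 7357, since a region of 1 list then counts. The ratio of lost to gained regions was 3.34 without pupa replicate 1 and 1.13 without adult replicate 1. Groups of 2 samples allow no exact permutation p below 0.333, so these counts have no test.

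On placed chromosomes, 99.2% of kept regions held a base common to all 4 lists. Few thus rested on a chain of intervals without a shared base. A shared base does not exclude that a neighbouring peak was joined to the same region, and this was not counted. Requiring an overlap of 100 bp gave 11842 kept, 7384 lost and 3495 gained regions, and joining across gaps of up to 200 bp gave 11564, 7010 and 3254.

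Unplaced contigs changed less. Of 9002 regions there, 3996 (44.4%) were kept, 799 (8.88%) lost and 546 (6.07%) gained, with 1.46 lost regions for each gained one, which turned to 0.711 without adult replicate 1. Loss took 15.6% of the 5136 regions shared by the pupa lists, and gain 10.3% of the 5320 shared by the adult lists. Regions that began at the first base of their contig were nearly all stable, with 1480 of 1610 kept, 6 gained and 0 lost. The other 7392 unplaced regions comprised 2516 kept, 799 lost and 540 gained regions. Of the regions in 3 lists, 599 lacked a peak in pupa replicate 2 and 179 in pupa replicate 1, whereas on placed chromosomes it was the other way round, with 581 and 1386.

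**Figure D1:**
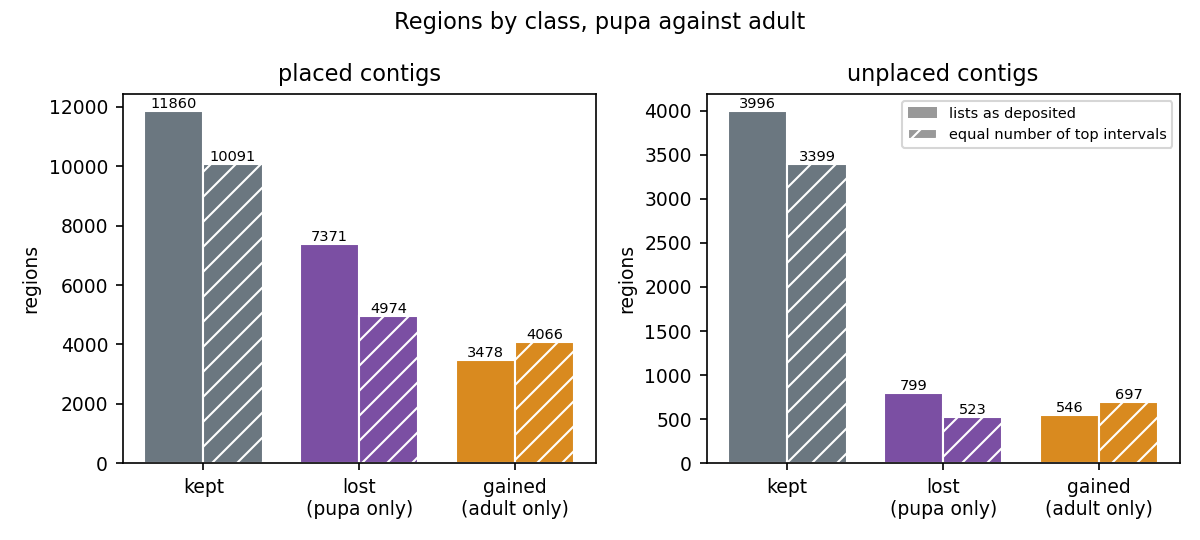
Numbers of kept, lost and gained regions (bars, from 0) on placed and unplaced contigs, from the lists as deposited (plain) and from the 27135 intervals of highest −log10 p of each list (hatched). With lists of equal number, placed regions remain more often lost (4974) than gained (4066), and on unplaced contigs gained regions (697) exceed lost ones (523).

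The excess of lost over gained regions depended on list length. When each list was reduced to its 27135 intervals of highest −log10 p, the length of the shortest list, 10091 placed regions were kept, 4974 lost and 4066 gained, or 1.22 lost for each gained. With the 20993 best placed intervals of each list these numbers were 9908, 4601 and 4218, or 1.09. On unplaced contigs the direction turned, with 523 lost and 697 gained regions, or 0.750 lost for each gained. The reduction dropped 27.6% of the intervals of pupa replicate 2, 18.1% of pupa replicate 1 and 14.0% of adult replicate 2. The last interval kept had a −log10 p of 8.64, 6.29 and 5.18 in these lists, and the first one dropped had 8.64, 6.29 and 5.18, so the limit cut through intervals of the same strength. Adult replicate 1 was not reduced, and its last interval had a −log10 p of 2.56. Lists of equal number thus reached down to different values, and the effect of this on the counts was not tested.

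Among strong peaks, in contrast, the ratio of lost to gained regions grew. With only intervals of −log10 p above 10, 4982 placed regions were lost and 1606 gained, and above 20 there were 2542 lost and 562 gained, or 4.52 for each gained. Lost regions made up 37.2% and 34.8% of those shared by the pupa lists at these limits, against 33.6% in the deposited lists. The gained share of regions shared by the adult lists was 16.2% and 10.3%, against 20.1%. Asking for −log10 p above 20 in both lists of a stage and no deposited interval at all in the other stage left 762 lost and 134 gained placed regions, and 98 and 21 unplaced ones. The −log10 p grows with the number of reads at equal fold enrichment, and the part of read number in these counts was not tested.

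Stable and changing regions differed in their strength within a stage. The regions shared by both lists of a stage were ordered by their mean rank of fold enrichment in these lists. They were divided into deciles, 10 groups of equal size. The values come from that stage alone, but the bounds of a region come from all 4 lists. In the weakest decile of placed pupa regions, 55.8% had no adult peak (95% Clopper-Pearson interval 53.7% to 57.9%), and the share fell with every step to 3.96% (3.18% to 4.86%) in the strongest decile. In the weakest decile of placed adult regions, 37.6% (35.3% to 39.9%) had no pupa peak, and in the strongest decile it was 0.116% (0.0140% to 0.417%). Almost every strong adult region was thus also detected in the pupa lists, while the intervals of the strongest deciles of pupa and adult did not overlap. These intervals cover counting error only, and regions of 1 genome are not independent.

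On placed chromosomes, lists of equal length removed the gap between the stages at the weakest regions and left it at strong ones. The weakest deciles of pupa and adult then had 48.7% and 48.9% without a peak of the other stage. In the eighth decile the shares were 15.99% for the pupa and 8.17% for the adult, in the ninth 10.03% and 2.35%, and in the strongest 3.13% (2.35% to 4.07%) and 0.248% (0.0675% to 0.633%). On unplaced contigs the weakest deciles of the equal lists had 42.8% for the pupa and 48.6% for the adult. There the deposited lists gave 45.9% and 33.3% in the weakest deciles, and 0 of 514 pupa and 0 of 533 adult regions in the strongest.

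**Figure D2:**
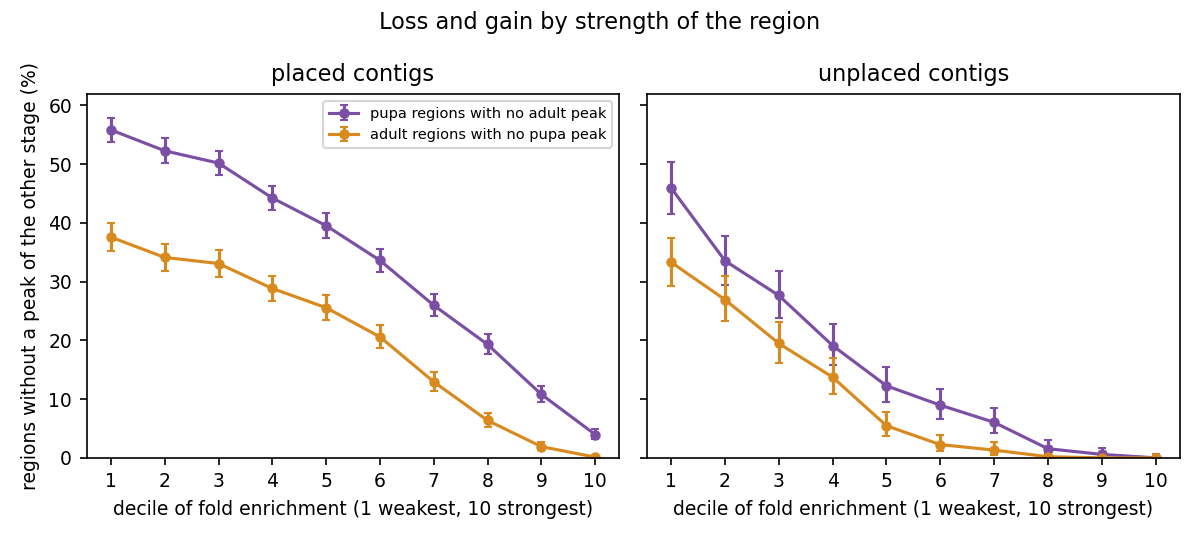
Share of regions of one stage without a peak of the other stage (percent, vertical axis) by decile of within-stage fold enrichment (horizontal axis, 1 weakest to 10 strongest), for pupa (purple) and adult (orange), with 95% Clopper-Pearson intervals as bars. On placed contigs the pupa falls from 55.8% to 3.96% and lies above the adult, which falls from 37.6% to 0.116%.

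The strongest of the lost regions were prominent peaks of the pupa. Described here are the 5 placed and 2 unplaced lost regions that ranked first by fold enrichment in the weaker pupa list. NC_015774.1:444096-444934 had a fold enrichment of 11.5 and 10.7 in pupa replicates 1 and 2, with −log10 p of 89.2 and 115, and the nearest adult intervals lay 31019 and 38738 bp away in adult replicates 1 and 2. This region was open at every earlier stage too, with 14.1 and 12.3 in the egg lists and 6.88 and 4.11 in the larva lists, so that the adult lists were the only ones of the 8 without it. NC_015775.1:3192833-3193626 had the same history, with 9.88 and 11.8 in the pupa, 5.80 and 2.62 in the larva and 8.25 and 11.1 in the egg. Its nearest adult intervals were 7950 and 5559 bp away.

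NC_015772.1:5870237-5870922, with 9.69 and 9.72 in the pupa, was likewise present in all 4 egg and larva lists, but at a lower fold enrichment of between 2.97 and 4.77. The remaining placed lost regions also had a higher fold enrichment, unscaled, in both pupa lists than in any other list. NC_015774.1:970488-971000 reached 9.04 and 9.91 in the pupa, and of the other lists only egg replicate 1 held it, at 3.22. NC_015770.1:4213078-4213769 reached 9.03 and 9.34 in the pupa and was held by egg replicate 1 at 6.93 and larva replicate 1 at 2.51. Adult intervals lay 1408 and 1456 bp from it, nearer than at the other 4 placed regions.

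On unplaced contigs, NW_003565407.1:341984-342350 had 9.60 and 8.41 in the pupa lists and 7.48 and 4.94 in the egg lists. NW_003567833.1:50-656 had 8.95 and 8.23 in the pupa, and neither adult list held any interval on this contig. Each of the 5 placed regions stayed lost in all 11 alternative settings of the classes, and both unplaced ones in all 10. They were chosen as the strongest of their class, so these settings could hardly change it, and the constancy is no separate support.

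Gained regions at the top had lower fold enrichment than lost ones, in values not scaled between samples. The median over all intervals was 3.54 and 3.13 in the pupa lists and 3.52 and 2.81 in the adult lists. NC_015768.1:3773260-3773622 had a fold enrichment of 7.37 and 5.62 in adult replicates 1 and 2, with −log10 p of 40.6 and 45.8. Pupa replicate 2 held an interval 951 bp away and pupa replicate 1 one at 6141 bp. Egg replicate 2 was the only other list with the region, at 5.63, close to the value of adult replicate 2. NC_015767.1:6111808-6112596, at 6.37 and 5.53, and NC_015772.1:15882373-15883102, at 5.38 and 5.31, were held by no list of another stage. Their nearest pupa intervals were 4773 and 3235 bp away.

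Other strong gained regions had been open before. NC_015778.1:1834859-1835322 had 5.28 and 5.78 in the adult, but 8.64 and 14.6 in the egg and 5.53 and 3.74 in the larva, so that of the 8 lists those of the pupa were the ones without it. NC_015764.1:7643366-7643995 had 5.30 and 5.39 in the adult, 4.61 and 4.61 in the egg and 2.62 in larva replicate 2. These regions were thus detected early, not detected in the pupa and detected in the adult.

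The unplaced region NW_003567292.1:587-1007 had 7.77 and 5.99 in the adult and 2.45 and 6.09 in the egg, on a contig without a pupa interval. NW_003565639.1:26728-27247, at 5.68 and 5.67, was found in no list but those of the adult, although pupa intervals lay 387 and 465 bp away. All 5 placed gained regions stayed gained in 11 alternative settings, and both unplaced ones in 10. These too had been chosen as the strongest, so an unchanged class is no separate support.

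As a class, lost and gained regions were narrow and weak beside kept ones. The median width on placed chromosomes was 620.0 bp for kept, 396 bp for lost and 359 bp for gained regions. This is the width of the joined intervals, from 4 lists for kept but 2 for lost or gained regions, which by itself widens kept ones. In single lists, the median length covered at kept regions was 479 and 554 bp in the pupa and 423 and 477 bp in the adult. The median fold enrichment of lost regions was 3.08 and 2.99 in the pupa lists, where kept regions had 4.47 and 4.27. For gained regions it was 2.99 and 2.60 in the adult lists, against 4.23 and 3.54 for kept regions. Because a wide region overlaps more easily, width and class are not independent. A kept region lay within 1 kb of 11.8% of lost and 16.8% of gained regions, against 22.8% of kept regions that had another kept region so near, so most changes did not border a stable peak.

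Loss and gain were spread over all 18 placed chromosomes. The share of pupa regions lost was 32.9% ± 3.03 (SD, n = 18 chromosomes), from 24.4% on NC_015778.1 to 37.4% on NC_015773.1. Gained regions made up 19.7% ± 2.64 of adult regions, from 14.2% on NC_015777.1 to 23.6% on NC_015770.1. In the lists as deposited, each chromosome had more lost than gained regions, at 2.15 ± 0.372 lost for each gained. The chromosomes share the same samples and are no replicates of a stage, and lists of equal number were not counted by chromosome. The ratio was lowest, at 1.19, on NC_015778.1 and highest, at 2.80, on NC_015776.1.

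The egg and larva lists, which the classes do not use, were set beside the classes to ask whether the changing regions had been open earlier in development. Kept regions were mostly open in the egg as well. On placed chromosomes, 76.7% of kept regions overlapped a peak of both egg lists and 42.5% a peak of both larva lists, and 7.93% (7.45% to 8.43%) overlapped none of the 4 lists. Of lost regions, 18.7% (17.8% to 19.6%) had a peak in both egg lists, 2.84% (2.47% to 3.24%) in both larva lists and 51.6% (50.4% to 52.7%) in none. Of gained regions, 16.6% (15.4% to 17.9%) had a peak in both egg lists, 4.11% (3.48% to 4.83%) in both larva lists and 50.1% (48.4% to 51.7%) in none. The intervals of the shares found in no egg or larva list overlapped. The larva lists were the shortest of the series, with 17073 and 12331 intervals, and the effect of their length on the low larva shares was not tested.

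The egg replicates went opposite ways in the changing regions. Egg replicate 1 held a peak in 41.0% of lost and 23.5% of gained placed regions, whereas egg replicate 2 held one in 24.4% of lost and 41.7% of gained regions. Lost regions held by 1 egg list belonged to replicate 1 in 1644 cases and to replicate 2 in 419, and gained regions to replicate 1 in 237 cases and to replicate 2 in 873. The same held among unplaced regions, with 42.4% and 28.5% of lost and 31.5% and 39.4% of gained regions. Strength followed suit for pupa replicate 1 and the adult replicates at the 9094 placed kept regions with a peak in both egg lists. The Spearman correlation of fold enrichment across these regions was 0.731 for egg replicate 1 with pupa replicate 1 and 0.569 and 0.533 with the adult replicates. For egg replicate 2 it was 0.581 with pupa replicate 1 and 0.729 and 0.759 with the adult replicates. Pupa replicate 2 lay between, at 0.630 and 0.664, and so slightly nearer to egg replicate 2. On unplaced contigs the pattern was weaker. Egg replicate 1 had 0.884 and 0.547 with pupa replicates 1 and 2, and 0.829 and 0.761 with the adult replicates. For egg replicate 2 these values were 0.859 and 0.755, and 0.877 and 0.865. Each egg sample was a pool, the labels do not distinguish the egg replicates, and what separates them was not tested.

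Stronger changing regions were more often open in the egg. In the strongest quartile of lost regions, by the fold enrichment of the weaker pupa list, 30.7% had a peak in both egg lists, against 12.6% in the weakest quartile. For gained regions the shares were 24.8% and 10.5%. Gained regions on unplaced contigs stood out in the larva, where 12.3% (9.64% to 15.3%) had a peak in both lists, against 2.38% (1.44% to 3.69%) of lost regions there.

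**Figure D3:**
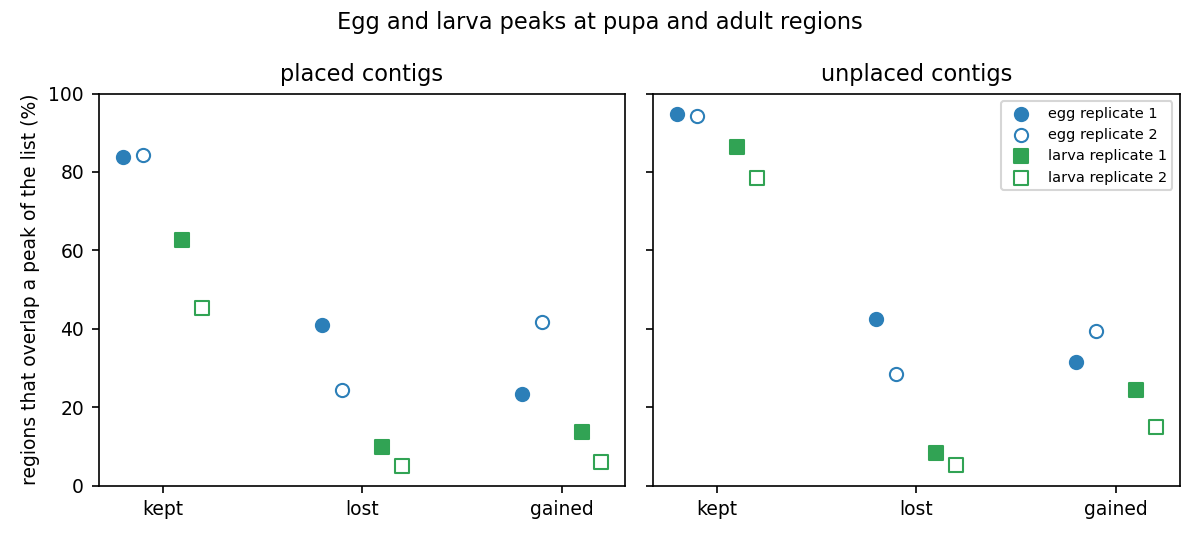
Share of kept, lost and gained regions that overlap a peak (percent, vertical axis) of egg replicates 1 and 2 (blue circles, filled and open) and larva replicates 1 and 2 (green squares, filled and open), on placed and unplaced contigs. Egg replicate 1 lies above egg replicate 2 for lost regions (41.0% and 24.4% on placed contigs) and below it for gained regions (23.5% and 41.7%).

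At kept regions, the question was whether openness changed where a peak persisted. The rank of a region by fold enrichment within each list was compared among all kept regions. On placed chromosomes both adult ranks lay above both pupa ranks in 3353 regions and below them in 3485, and the ranks overlapped in 5022. Over placed and unplaced kept regions together, 27.7% lay above and 25.0% below. The median shift between stages was 12.0 rank units in size on placed chromosomes, beside a median difference of 9.51 between the pupa replicates and 7.17 between the adult replicates. On placed chromosomes large falls were more common than large rises, with 2060 placed regions falling and 1458 rising by more than 20 rank units. Unplaced contigs went the other way, with 275 falling and 715 rising, and over all kept regions 2335 fell and 2173 rose.

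Across placed kept regions, the Spearman correlation of fold enrichment was 0.819 between the pupa lists and 0.885 between the adult lists, and between 0.573 and 0.624 for the 4 pairs across stages. On unplaced contigs the order was different, since pupa replicate 1 correlated at 0.877 with adult replicate 1 and at 0.737 with pupa replicate 2. There, 1037 regions lay above, 475 below and 2484 overlapped, and the low rank of pupa replicate 2 on these contigs moves with this excess of rises. With ranks taken among placed kept regions alone, an alternative chosen after the data were seen, 3837 placed regions lay above and 3159 below. The balance of rises and falls on placed chromosomes thus depended on the inclusion of unplaced contigs.

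A change in fold enrichment that passed a test across all kept regions was found in few of them, and mostly toward lower values in the adult. The log2 fold enrichment, quantile normalized over the 4 lists, was fitted with limma for 15856 kept regions. At a Benjamini-Hochberg adjusted p below 0.05, 80 regions (0.505%) were higher and 368 (2.32%) lower in the adult. On placed chromosomes these were 63 and 329, and on unplaced contigs 17 and 39. The median log2 change of called regions was 1.12 for those that rose and −1.24 for those that fell, with median standard errors of 0.19 and 0.20. At an unadjusted p below 0.05 there were 3403 regions.

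A kept region still has an adult peak, so one that is called lower starts from a strong pupa peak by this choice. On placed chromosomes their median fold enrichment was 7.18 and 6.23 in the pupa lists and 2.79 and 2.34 in the adult lists. Those that rose went from 2.61 and 2.49 to 6.04 and 4.62. In egg replicate 1 the placed regions that fell had a median rank of 56.7 among kept regions, against 42.2 for all placed kept regions with a peak there, while the unplaced ones had 61.7 against 78.5. In egg replicate 2 the median rank of the placed regions that fell was 33.7, against 43.6 for all placed ones, and that of the unplaced regions was 37.8 against 68.7.

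These calls depended on the lists used. Without either adult replicate, limma called 0 regions at the adjusted threshold, with 1826 at an unadjusted p below 0.05 without replicate 1 and 1641 without replicate 2. Without pupa replicate 1 it called 949 higher and 1038 lower, and without pupa replicate 2 it called 252 and 375. Placed chromosomes fitted alone gave 724 higher and 1082 lower, among them all 392 placed regions called in the joint fit, so that 40.1% of calls were rises, against 63 of 392 before. Unplaced contigs fitted alone, an alternative chosen after the data were seen, gave 0 calls and 339 regions at an unadjusted p below 0.05. Each of the 448 called regions kept its direction in every fit that included it. They had been selected by a test on these same lists, so a turn of direction was unlikely and its absence is no separate support.

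**Figure D4:**
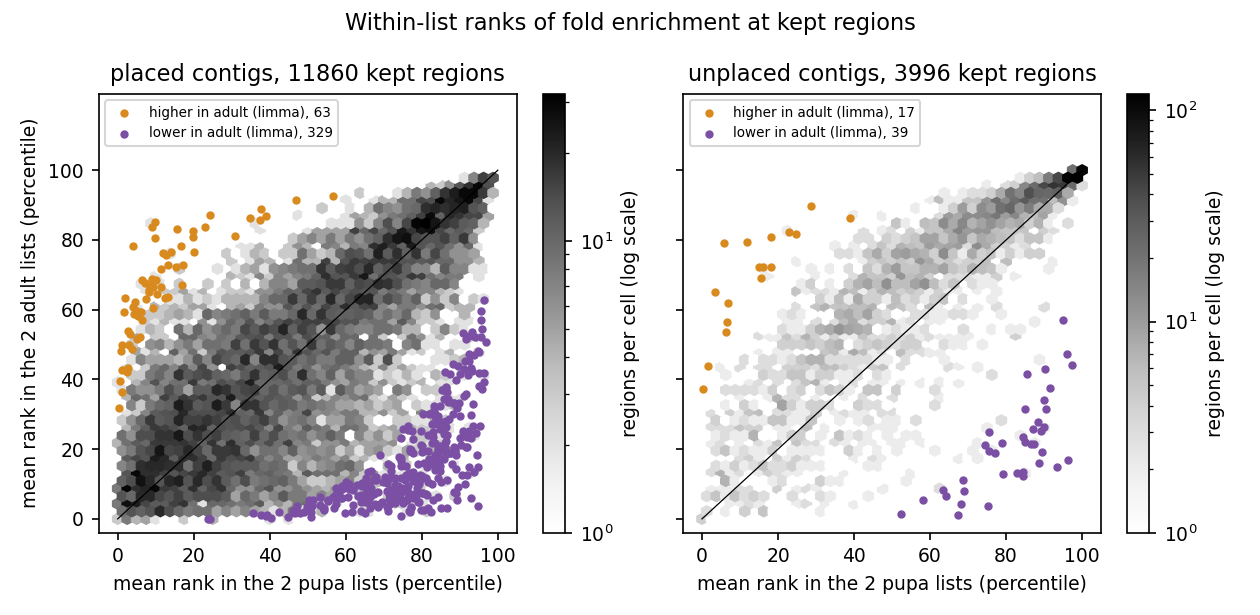
Mean percentile rank of fold enrichment in the 2 adult lists (vertical axis) against that in the 2 pupa lists (horizontal axis) at kept regions. Grey cells give the number of regions on a log scale, the line marks equal ranks, and points mark regions called by limma at an adjusted p below 0.05. The 329 placed regions lower in the adult (purple) outnumber the 63 higher ones (orange), and on unplaced contigs most grey cells lie above the line.

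The regions with the largest shift of rank whose pupa and adult ranks did not overlap were described next. They were chosen by this shift, so their values are given without reading a test from them, and all 12 had the same limma adjusted p of 0.0361. At NC_015771.1:12227893-12228510 the fold enrichment was 10.3 and 9.93 in the pupa and 2.39 and 1.93 in the adult, a fall from ranks 92.2 and 97.7 to 5.35 and 2.28. Its normalized log2 change was −2.21 (SE 0.22). The egg lists held it at 11.6 and 4.83 and the larva lists not at all.

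NC_015763.1:2933239-2934079 fell from 9.42 and 9.17 to 2.29 and 2.23, with a log2 change of −2.01 (SE 0.21). Here the region remained in the adult as a remnant, covered over 256 and 203 bp, where the pupa intervals covered 611 and 841 bp. NC_015773.1:664634-665366 fell from 8.08 and 8.72 to 2.29 and 2.19, and was strong in the egg at 10.3 and 7.24. NC_015773.1:2052655-2053207 fell from 8.15 and 7.35 to 2.09 and 2.08. This region was found in all 8 lists, and in none of those of egg and larva did it exceed 4.22, so that its fold enrichment was highest in the pupa.

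On unplaced contigs, NW_003565969.1:743-2069 fell from 11.3 and 10.97 to 2.59 and 2.81, and NW_003565557.1:1630171-1630782 from 10.4 and 8.29 to 2.29 and 2.86. All 6 regions with the largest fall were present in both egg lists, as were those with the largest rise. Of all kept regions, 76.7% on placed and 91.6% on unplaced contigs were. In all of them the pupa values were 7.35 or more and the adult values 2.86 or less.

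The largest rises were smaller and started from weak pupa peaks. NC_015773.1:8987236-8987713 rose from 2.61 and 2.67 in the pupa to 7.27 and 7.20 in the adult, or from ranks 7.27 and 12.5 to 79.1 and 91.2, with a log2 change of 1.56 (SE 0.21). In the pupa its intervals covered 241 and 294 bp, and in the adult 362 and 478 bp. It was held by egg replicate 2 at 7.23, egg replicate 1 at 3.997 and larva replicate 1 at 4.32.

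NC_015764.1:173985-174458 rose from 2.89 and 2.31 to 7.47 and 6.51, and was found in all 8 lists with up to 10.4 in egg replicate 2. NC_015763.1:13276253-13277109 rose from 2.24 and 2.31 to 7.55 and 5.33, and grew from 326 and 240 bp with 1 summit in each pupa list to 809 and 857 bp with 3 summits in each adult list. NC_015764.1:11065879-11066359 rose from 2.80 and 2.49 to 6.97 and 6.24, had 3.09 and 3.10 in the egg lists and was not held by the larva lists. The unplaced regions NW_003565796.1:1751-2271 and NW_003565424.1:182971-183547 rose to 8.27 and 5.10 and to 7.37 and 5.62, from pupa values between 2.24 and 3.17.

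Kept regions that rank first by fold enrichment in the weakest of the 4 lists are strong in both stages by this choice, and their values are a description. NC_015769.1:9732855-9733834 had a fold enrichment of 14.3 and 13.5 in the pupa and 14.8 and 13.8 in the adult, and its log2 change was 0.08 (SE 0.25). NC_015762.1:14534899-14535692 had 13.6 and 13.3 in the pupa and 13.9 and 12.0 in the adult. Both were also between 13.1 and 15.4 in the egg and larva lists. The pair of unplaced regions began at the first base of NW_003568105.1 and NW_003570536.1, and their log2 changes were 0.06 (SE 0.28) and 0.08 (SE 0.20).

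Kept regions were also broader in the pupa. On placed chromosomes the median length covered at a kept region was 479 and 554 bp in the pupa lists and 423 and 477 bp in the adult lists, so that adult replicate 2 nearly reached pupa replicate 1. Both pupa lists covered more of the region than both adult lists in 4434 regions (37.4%), and both adult lists covered more in 1417 (11.9%). Over all kept regions these shares were 32.0% and 12.2%. Unplaced contigs showed little of this, with 632 regions wider in the pupa and 522 wider in the adult, so that the placed chromosomes carried the difference. Width follows read number in peak calling, and the part of depth was not tested.

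The windows with most lost and with most gained regions lay side by side on 1 chromosome. The placed chromosomes were divided into 2162 windows of 100 kb, with a median of 5 kept, 3 lost and 1 gained region. The 2 windows with most lost regions and the 2 with most gained regions adjoined each other on NC_015772.1, from 9000001 to 9400000. The first window held 20 lost, 0 gained and 8 kept regions, and the second 18, 0 and 9. The third held 8 lost, 11 gained and 4 kept regions, and the fourth 4, 10 and 6. The windows were chosen by these counts, which therefore have no test.

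Within this stretch the classes alternated in blocks, a pattern examined after the counts had been seen. Passing over kept and mixed regions, 42 lost regions followed each other from 9000864 to 9233043. Then came 11 gained regions from 9238088 to 9274143, 7 lost ones from 9279089 to 9307447, and 4 gained, 1 lost and 6 gained ones up to 9379496. The typical run on placed chromosomes was 2 lost regions or 1 gained region (medians of 1978 and 1973 runs). These runs were picked as the longest, and no test of their length was made. The 42 lost regions in a row were matched by a run of the same number on NC_015773.1, which was spread over 652 kb in place of 232 kb, and the longest run of gained regions held 12.

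No single strong peak made up this stretch. The fold enrichment of the 38 lost regions in the first 2 windows had a median of 3.13 and 3.07 in the pupa lists and reached 7.13 and 6.54. That of the 21 gained regions in the last 2 windows had a median of 3.15 and 2.64 in the adult lists and reached 4.88 and 3.61. Of these 38 lost regions, 19 had a peak in egg replicate 1 and 11 in egg replicate 2, and of the 21 gained regions 4 and 13. Over all placed chromosomes the shares were 41.0% and 24.4% of lost regions, and 23.5% and 41.7% of gained regions. With 27135 intervals in each list the 4 windows held 20, 17, 8 and 4 lost and 0, 0, 13 and 10 gained regions. Kept regions were interspersed throughout the stretch. Of the 27 kept regions, 13 had both adult ranks above both pupa ranks and 9 had both below, where 27.7% and 25.0% of all kept regions did.

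**Figure D5:**
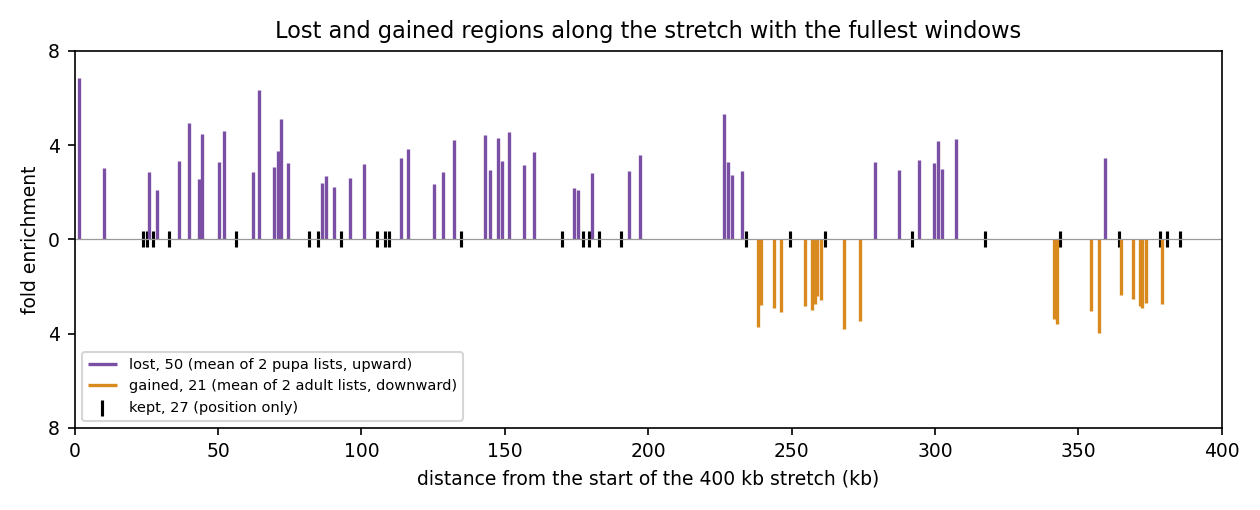
Lost regions (purple, 50, upward, mean fold enrichment of the pupa lists) and gained regions (orange, 21, downward, mean of the adult lists) along the stretch of 4 windows of 100 kb on NC_015772.1, with kept regions as ticks (27, position only). Lost regions fill the left of the stretch, and a block of 11 gained regions begins just after it.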

How the data were processed

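ATAC-seq peak lists of 4 stages with 2 samples each were used, 4 of them for the comparison. Per the labels and methods, the authors aligned 50 bp paired reads to Bter_1.0 with Bowtie2 2.2.5, kept up to 200 alignments per read and called peaks per sample with MACS2 2.2.5 (shift −100, extension 200 bp). Reads that fit several places can add to a peak, which bears on unplaced contigs. The deposited columns hold fold enrichment over local background, −log10 of the p-value and q-value, and a score derived from q. None is normalized between samples.

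Summits sharing an interval were taken once, at their best value. Regions were formed, classified and ranked in Python, and log2 fold enrichment at kept regions was quantile normalized and tested with limma 3.58.1 (R 4.3.3, empirical Bayes with trend, Benjamini-Hochberg). The scripts were tested on simulated data. Regions named are the 5 placed and 2 unplaced lost and gained ones that ranked first by fold enrichment in the weaker list, the 2 placed and 2 unplaced kept ones highest in the weakest list, the 4 placed and 2 unplaced with the largest non-overlapping rank rise and fall, and the 2 windows with most lost and most gained regions. Members and lists were chosen with earlier results of these data known. The lists give no depth for a peak, and the library totals that the study states were not used here. Confidence intervals cover counting error only. The labels do not say whether the samples came from separate colonies. The p-values judge a stage difference against the spread between these samples, moderated over all kept regions. The fit takes this spread as equal for pools of pupae and single adult bees. Motifs, nearest genes and transcription factor binding, planned for a genome of the same build, were not analysed here.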

Additional observations from a re-analysis of the deposited data

How the results depend on the processing

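The named lost and gained regions kept their class in all settings run. The 12 named kept regions with a call kept their direction in all 144 alternative values, though some no longer passed the threshold. All of these regions were chosen for a strong difference between the stages, so these outcomes were largely set by the choice. Of the 4 strongest kept regions, which had no call and changes near 0, 3 took the other sign in some alternatives. Intervals of −log10 p above 10 gave 7073 kept placed regions and 270 gained unplaced ones, beside the 4982 lost and 1606 gained placed regions. Above 20 there were 4112 kept, 2542 lost and 562 gained placed regions and 2013 kept, 330 lost and 139 gained unplaced ones. With presence above 20 and absence as no interval, 762 lost and 134 gained placed and 98 and 21 unplaced regions remained. Lists of equal number gave 523 lost unplaced regions, and equal placed lists 4601 lost placed ones. Leaving out each replicate in turn gave 8325 to 13565 lost and 4067 to 7357 gained placed regions, and 926 to 1527 lost and 730.0 to 1302 gained unplaced ones.

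Leaving out each replicate in turn moved the limma calls to between 0 and 1987, with 0 to 949 higher and 0 to 1038 lower in the adult, where a lone sample is assumed to vary like the other stage. The −log10 p in place of fold enrichment gave 292 calls, 44 of them higher. With the replicate number as a block there were 674 calls, 148 of them higher, but the deviations of same-numbered samples correlated at only 0.169 over 2 pairs, and the labels do not pair them. Placed contigs alone gave 1806 calls, 724 higher and 1082 lower, and unplaced contigs alone gave 0. Other fits gave 394 to 531 calls.

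With a peak in at least 1 list in place of both, 46.7% of lost and 48.6% of gained placed regions overlapped an egg peak and 12.1% and 15.4% a larva peak, and for unplaced regions 50.2% and 50.9%, and 11.4% and 26.9%. Classes from lists of equal number gave 24.6% and 20.8% for both egg lists and 4.12% and 5.61% for both larva lists on placed chromosomes, and 24.9% and 26.0% for egg and 17.6% of gained regions for larva on unplaced contigs. The peak lists hold no reads, so a missing peak is a value below the authors' threshold in that library, and the part of depth was not tested. Each stage has 1 pair of samples. The causes of these shifts were not tested.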
